A study of Mus musculus with 8 samples.

Results

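Keratins are the intermediate filament proteins of epithelia. A filament is built from pairs of 1 acidic type I and 1 basic type II chain, so the chains of both types are needed for a stable filament, and an unpaired chain is usually degraded. Simple, single-layered epithelia such as the gut lining use the type II keratins Krt7 and Krt8 and the type I keratins Krt18, Krt19 and Krt20. In the intestine, Krt8 is the main type II chain, Krt19 is found along the crypt and villus, Krt20 marks differentiated cells of the villus, and Krt7 is more a keratin of ducts, bladder and other simple epithelia. These 5 genes were taken by name, as the 5 simple epithelial keratins, and not by their values, and all 5 had a value and passed the filter on low values. They are 5 of 13899 genes with a value and 5 of 28 keratins with a value, out of 49 protein-coding keratins in the annotation.

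RNA was sequenced from crypt organoids, which are small epithelial cultures grown in Matrigel from isolated small-intestinal crypts in IntestiCult OGM medium. By the labels there were 4 samples from MG53-TG mice, which overexpress MG53 globally, and 4 from wild-type (WT) littermates. A legend of the study also names MG53-TG and WT mice for the organoid RNA-seq. Its text instead ascribes a crypt organoid transcriptome to mice with an added Lgr5 reporter allele (MG53;Lgr5), with Lgr5 mice as controls. The labels, which name no such allele, were followed, and whether these samples carried it is not settled. MG53 is a TRIM-family ubiquitin ligase encoded by Trim72, known for its part in membrane repair. The promoter that drives the transgene, the age of the mice and any treatment before the crypts were taken are not given in the sources used here. Whether samples of one genotype came from separate mice or cultures is not stated either, so the p-values measure the spread between these samples, which may in part be technical. The comparison asks which keratins differ between MG53-TG and WT organoids.

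Trim72 (chr7:128003949-128011033, GRCm38, plus strand) was absent from the WT tables and reached 16.4, 27.4, 31.9 and 36.5 FPKM in MG53-TG 1 to 4. FPKM, which is scaled to transcript length and to the fragments mapped, was the deposited unit, so levels of different genes can be set side by side per length. The read depth is unknown, and start events summed to 269837 to 273797 FPKM a sample in WT and to 269094 to 284330 FPKM in MG53-TG. The labelled cell type is matched by its markers: the 5 general epithelial markers summed to between 1018 and 1136 FPKM in WT and between 943 and 1054 FPKM in MG53-TG, whereas the immune markers Cd79a and Tyrobp were not listed in any sample, and the immune list summed to at most 0.296 FPKM. Genes were compared with limma on log2(FPKM + 1), with Benjamini-Hochberg adjusted p-values over all 10892 genes tested and a threshold of 0.05. Of these genes, 15.5% were called higher and 28.8% lower in MG53-TG, and the median difference over all genes was -0.17 on the log2 scale. Median-of-ratios scaling moved that median by 0.157 and quantile normalization by 0.109, so differences of that size depend on how the samples are scaled. The sum of the 5 general epithelial markers held changes in both directions. Vil1 was called higher, with means of 98.2 FPKM in WT and 213 FPKM in MG53-TG. Elf3 (109 and 52.8 FPKM), Cdh1 (222 and 127 FPKM) and Cldn7 (198 and 154 FPKM) were called lower, and Epcam was not called. Cldn7 was not called with median-of-ratios scaling (limma adjusted p = 0.247).

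Krt20 rose in the MG53-TG organoids, Krt7, Krt8 and Krt18 fell, and Krt19 was raised in some MG53-TG samples but not in others. That is 1 of 5 members called higher and 3 of 5 called lower. In the same 4 members the 4 MG53-TG samples did not overlap the 4 WT samples. Over the 10561 genes for which this could be read, 15.7% had all MG53-TG samples above all WT samples and 28.9% all below. In WT the order of the levels was Krt8, Krt18, Krt19, Krt7 and Krt20, and no neighbours in that order overlapped between samples. In MG53-TG the order by mean level was Krt8, Krt19, Krt18, Krt20 and Krt7, and the ranges of Krt19, Krt18 and Krt20 overlapped one another. Bulk RNA cannot separate fewer cells of a type from less RNA per cell, and this holds for each value that follows.

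**Figure D1:**
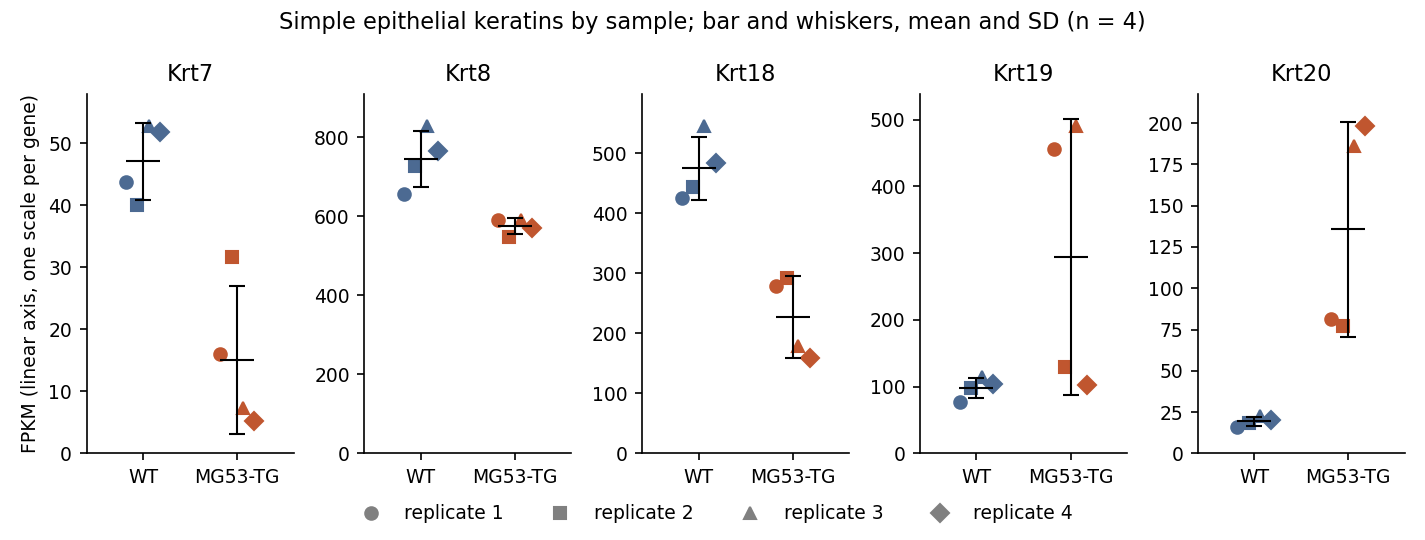
FPKM (vertical axis, linear, from 0, one scale per gene) of the 5 simple keratins in 4 WT and 4 MG53-TG organoid samples, with points for samples and bars for mean and SD. Krt20 is higher in each MG53-TG sample than in any WT sample, Krt7, Krt8 and Krt18 are lower, and Krt19 is high only in MG53-TG samples 1 and 3, at 456 and 490 FPKM.

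Krt20, the type I keratin of differentiated gut epithelium, lies on chromosome 11 (chr11:99428403-99438150, GRCm38, minus strand) and has 1 annotated transcript. Its level in WT samples 1 to 4 was 15.9, 18.6, 22.6 and 20.01 FPKM, and in MG53-TG samples 1 to 4 it was 81.6, 76.8, 186 and 198 FPKM. All MG53-TG samples were above all WT samples, and among them samples 3 and 4 were at more than double the level of samples 1 and 2. The mean was 19.3 ± 2.76 FPKM (SD, n = 4) in WT and 136 ± 65.4 FPKM (SD, n = 4) in MG53-TG, a ratio of 7.04. The difference in log2(FPKM + 1) was 2.63 (SE 0.32, limma adjusted p = 0.000337), and the two-sided exact permutation p was 0.0286, the smallest that 4 against 4 samples can give. By mean level Krt20 ranked 2735 of 13899 genes in WT and 324 in MG53-TG. Its start and end events had the same FPKM in every sample, as both belong to its 1 annotated transcript, so they are not separate measurements.

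Krt18, the type I partner of Krt8, lies on chromosome 15 (chr15:102028180-102032027, GRCm38, plus strand) and also has 1 annotated transcript. It was at 426, 444, 545 and 483 FPKM in WT samples 1 to 4 and at 279, 292, 179 and 158 FPKM in MG53-TG 1 to 4. All MG53-TG samples were below all WT samples, and the order within MG53-TG was opposite to that of Krt20, with samples 3 and 4 the lowest. The mean fell from 474 ± 52.7 FPKM (SD, n = 4) to 227 ± 68.1 FPKM (SD, n = 4), so the WT level was 2.09 times that of MG53-TG. The difference in log2(FPKM + 1) was -1.11 (SE 0.20, limma adjusted p = 0.00286; exact permutation p = 0.0286).

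The sequences just upstream of these 2 genes are shown because they are the called type I members, 1 higher and 1 lower, and each has a single annotated start. They are from the RefSeq promoter table of GRCm38.p6, which matched 4 of the 5 members (Krt7, Krt8, Krt18 and Krt20), and run 5′ to 3′ up to the base before the more upstream of the RefSeq and GENCODE starts. The Krt20 stretch is chr11:99438154-99438403 on the minus strand and the Krt18 stretch is chr15:102027966-102028179 on the plus strand. Capitals mark TATAAA, the letters of a TATA box, and AGGTCA, the half-site letters that nuclear receptors bind.
Krt20: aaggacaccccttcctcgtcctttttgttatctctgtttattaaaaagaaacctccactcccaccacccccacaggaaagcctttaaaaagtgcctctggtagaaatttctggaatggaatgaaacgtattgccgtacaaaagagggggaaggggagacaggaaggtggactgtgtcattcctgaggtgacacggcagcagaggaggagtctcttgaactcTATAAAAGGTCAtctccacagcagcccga
Krt18: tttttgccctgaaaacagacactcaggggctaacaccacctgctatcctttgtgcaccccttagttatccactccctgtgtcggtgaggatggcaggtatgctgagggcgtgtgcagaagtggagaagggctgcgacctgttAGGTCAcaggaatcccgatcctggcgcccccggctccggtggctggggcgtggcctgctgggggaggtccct

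Both strands of the 250 bases before each RefSeq start were searched for these letters. The search also took in GGGCGG (GC box), TTTATN (CDX core), CCACCC (KLF), TGANTCA (AP-1) and CAAAGTCCA (HNF4 core), where N is any base. In Krt20 the TATAAA began 29 bases before the start and the AGGTCA followed it directly, beginning 23 bases before the start. In Krt18 there was no TATAAA, and 1 AGGTCA began 108 bases before the start. Krt8 also held 1 AGGTCA, 225 bases before its start. Krt7 held neither TATAAA nor AGGTCA but had 4 copies of GGGCGG, the letters of a GC box. TTTATN matched at 2 places in Krt20 and 1 in Krt7, and CCACCC at 1 place in Krt20 and 2 in Krt8. Of the 2 TTTATN matches in Krt20, 1 is the TATAAA above read on the other strand, so the same bases are counted under both. TGANTCA and CAAAGTCCA matched in none of these genes. Over all 32851 promoters of this length in the table, 12.4% held TATAAA, 14.0% AGGTCA, 32.7% GGGCGG, 37.2% TTTATN and 28.1% CCACCC. These are matches of letters in sequence, chosen with the values of the genes known, and no binding was measured.

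Krt8, the main type II chain of the gut, lies on chromosome 15 on the minus strand (chr15:101996698-102004482, GRCm38), head to head with its partner Krt18, with 23698 bases between their starts. Its level came from its end event, since its only start event was listed in only 3 samples and ended at a boundary that is not in the annotation. It was at 658, 727, 828 and 766 FPKM in WT samples 1 to 4 and at 590, 549, 591 and 570 FPKM in MG53-TG 1 to 4. The MG53-TG samples lay close together and all below the lowest WT sample. The means were 745 ± 71.4 and 575 ± 20.1 FPKM (SD, n = 4 each), and the difference in log2(FPKM + 1) was -0.37 (SE 0.083, limma adjusted p = 0.00753; exact permutation p = 0.0286). After median-of-ratios scaling the difference was -0.18 (limma adjusted p = 0.239), so this call depends on the scaling. Krt8 remained among the most abundant transcripts, ranked 38 of 13899 genes in WT and 65 in MG53-TG.

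Krt7, a type II keratin of simple epithelia, lies on the same chromosome (chr15:101411043-101430313, GRCm38, plus strand), 566385 bases from Krt8, and has 5 annotated transcripts. It was at 43.7, 40.02, 52.8 and 51.9 FPKM in WT samples 1 to 4 and at 15.9, 31.6, 7.37 and 5.26 FPKM in MG53-TG 1 to 4. All MG53-TG samples were lower than all WT samples, with sample 2 the nearest to them. The means were 47.1 ± 6.22 FPKM in WT and 15.1 ± 11.98 FPKM in MG53-TG (SD, n = 4 each), so WT was 3.13 times higher. The difference in log2(FPKM + 1) was -1.87 (SE 0.45, limma adjusted p = 0.0103, exact permutation p = 0.0286). It was -2.31 without MG53-TG sample 2 (limma adjusted p = 0.00101). Without MG53-TG sample 3 it was -1.66 (limma adjusted p = 0.0314), and without MG53-TG sample 4 it was -1.52 (limma adjusted p = 0.0191).

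The start events of Krt7 showed that MG53-TG sample 2 differed from the others in more than its level. The start whose first exon is that of transcripts Krt7-201 and Krt7-202 was at 41.9, 39.0, 51.4 and 50.1 FPKM in WT samples 1 to 4 and at 13.2, 2.19, 7.06 and 4.98 FPKM in MG53-TG 1 to 4. At this start all MG53-TG samples were well below WT, and sample 2 was the lowest. An upstream start, shared by Krt7-204 and Krt7-205, reached 28.3 FPKM in MG53-TG sample 2, where it made up 89.4% of the start events. It made up 12.5% in MG53-TG sample 1 and at most 2.93% in any WT sample, and it was not listed in MG53-TG samples 3 and 4. A retained intron of Krt7, 2040 bases long, took between 10.6% and 14.1% of the FPKM at that intron in WT and 11.7%, 4.79%, 12.7% and 21.5% in MG53-TG samples 1 to 4, so the groups overlapped in this share. Gm671, an antisense gene, overlaps the 5′ part of Krt7, and whether the counting used strand is not stated in the sources used here, so reads of the pair may not be told apart. The upstream start lies inside the span of Gm671, which was itself at no more than 0.730 FPKM in any sample and was not listed in MG53-TG sample 2.

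**Figure D2:**
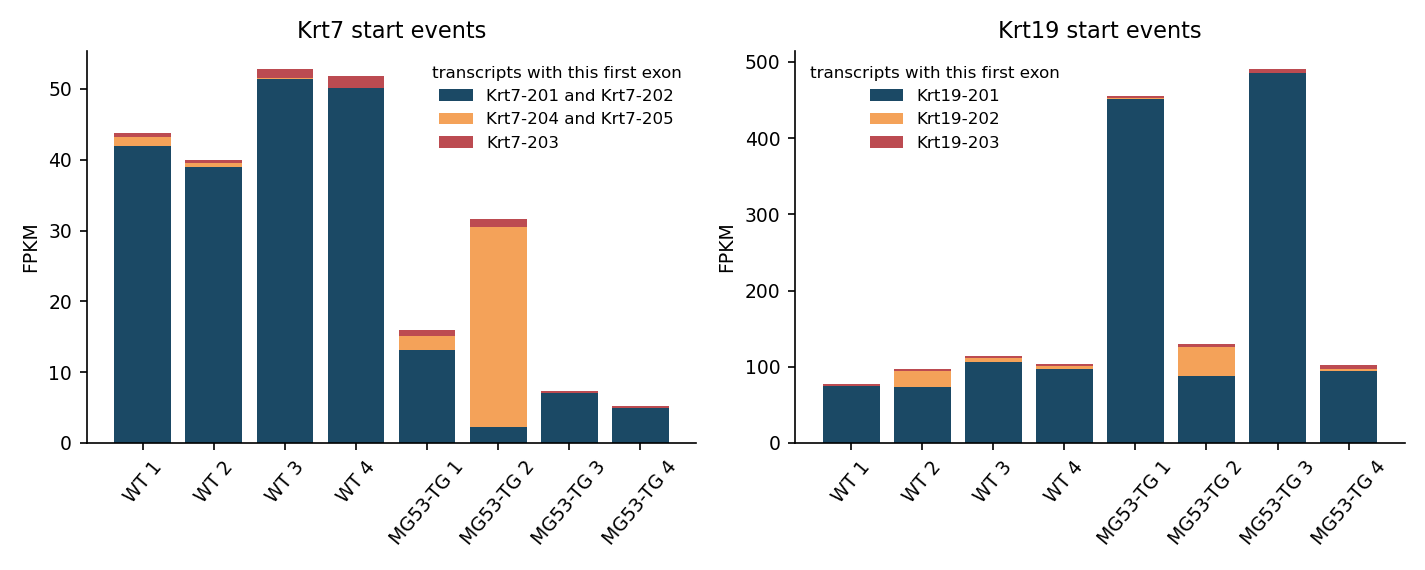
FPKM (vertical axis) of the annotated start events of Krt7 and Krt19 in each of the 8 samples, stacked by the transcripts that share the first exon. The upstream Krt7 start dominates in MG53-TG sample 2 alone (28.3 FPKM), and the high Krt19 samples are high at the Krt19-201 start.

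Krt19, a small type I keratin that lacks most of the tail of the other keratins, lies on chromosome 11 (chr11:100140810-100148665, GRCm38, minus strand), 702660 bases from Krt20, and has 3 annotated transcripts. It was at 77.4, 97.2, 114 and 104 FPKM in WT samples 1 to 4 and at 456, 130, 490 and 102 FPKM in MG53-TG 1 to 4. The groups overlapped: MG53-TG samples 1 and 3 were several times above every WT sample, sample 2 was just above them by this measure and sample 4 was within their range. The means were 98.1 ± 15.4 FPKM in WT and 294 ± 207 FPKM in MG53-TG (SD, n = 4 each). The difference in log2(FPKM + 1) was 1.26 (SE 0.50) and missed the threshold (limma adjusted p = 0.0697; exact permutation p = 0.0857). It was 1.65 without MG53-TG sample 4 (limma adjusted p = 0.0196), 1.54 without MG53-TG sample 2 (limma adjusted p = 0.0402) and 1.44 with median-of-ratios scaling (limma adjusted p = 0.0477), and in these settings it passed. It was 0.93 without MG53-TG sample 1 (limma adjusted p = 0.155), 0.90 without MG53-TG sample 3 (limma adjusted p = 0.167), 1.06 with end events (limma adjusted p = 0.160) and 1.11 with quantile normalization (limma adjusted p = 0.109).

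The end event of Krt19 gave the same split between the MG53-TG samples. It shares its transcripts with the starts, so it is not a separate measurement. The end event that Krt19-201 and Krt19-203 share was at 123, 76.7, 125 and 100 FPKM in WT samples 1 to 4 and at 455, 101, 490 and 98.8 FPKM in MG53-TG 1 to 4. By this event too, samples 1 and 3 stood far above the rest. The Krt19-201 start made up 95.9%, 75.9%, 93.5% and 93.8% of the annotated starts in WT samples 1 to 4 and 99.1%, 67.5%, 99.0% and 92.8% in MG53-TG samples 1 to 4, so most of Krt19 came from that start in each sample. The lower shares in WT sample 2 and MG53-TG sample 2 went with the upstream Krt19-202 start, at 20.5 and 38.0 FPKM there. A cassette exon behind that start was listed as included only in the same 2 samples, at 14.0 and 25.3 FPKM. Start events whose exon boundaries are not in the annotation, and which are not part of the values above, held 52.5 and 12.4 FPKM in WT sample 1 and 14.8 FPKM in WT sample 3. With them WT sample 1 was at 142 FPKM, above MG53-TG sample 2. Without the check of exon boundaries the difference was 0.99 (limma adjusted p = 0.136).

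As type I and type II chains pair, the make-up of the keratin pool was described in each sample. The summed level of the 5 genes was between 1220 and 1562 FPKM in WT and was 1422, 1078, 1454 and 1033 FPKM in MG53-TG 1 to 4, so the groups overlapped in the total. The share of Krt20 was between 1.31% and 1.44% in WT and was 5.73%, 7.13%, 12.8% and 19.2% in MG53-TG samples 1 to 4. The share of Krt18 was between 33.4% and 34.9% in WT and between 12.3% and 27.0% in MG53-TG. By these values the keratin pool of the WT samples was nearly the same from sample to sample. No MG53-TG sample had the WT make-up, and the 4 differed from one another. The WT samples were less alike with other event sums for Krt19. The level of the type I genes over the type II genes then spanned 0.702 to 0.805 in WT by the end event, and 0.729 to 0.833 with unannotated starts included.

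The level of the type I genes over that of the type II genes was between 0.729 and 0.773 in WT. It was 1.35, 0.858, 1.43 and 0.795 in MG53-TG samples 1 to 4, with the highest values in the samples that had high Krt19. Samples 2 and 4 lay close to WT: with the end event of Krt19 in place of its starts, WT sample 1 was at 0.805 and MG53-TG samples 2 and 4 at 0.810 and 0.790, and with unannotated starts included WT sample 1 was at 0.833, so the groups overlapped in both. There was 23.8 to 26.7 times as much Krt18 as Krt20 in the WT samples, 3.42 and 3.79 times as much in MG53-TG samples 1 and 2, and 0.963 and 0.796 times as much in samples 3 and 4. In the last 2 samples Krt20 was therefore the more abundant of the pair. Krt18 over Krt8 was between 0.610 and 0.658 in WT and 0.472, 0.531, 0.303 and 0.277 in MG53-TG samples 1 to 4.

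**Figure D3:**
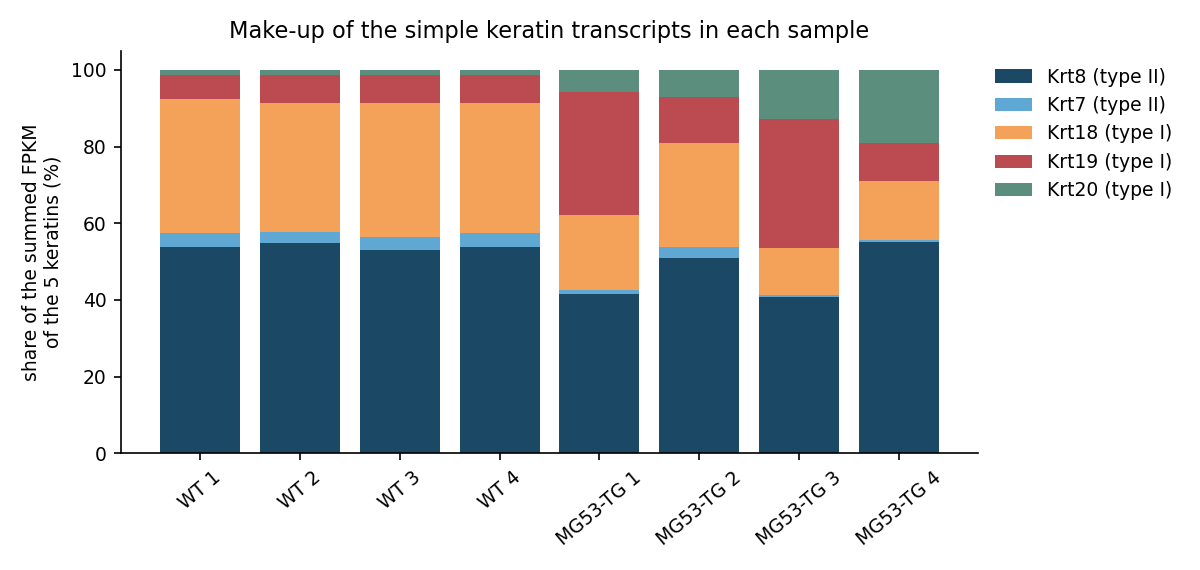
Share (vertical axis, percent) of each simple keratin in the summed FPKM of the 5, for each sample (horizontal axis). With Krt19 taken from its annotated starts the WT bars are alike, while Krt20 takes 5.73% to 19.2% in MG53-TG and Krt19 takes 32.0% and 33.7% in MG53-TG samples 1 and 3.

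A ratio to Krt8 within a sample is hardly moved when all genes of a sample are multiplied by 1 factor, so each gene was also compared as its log2 ratio to Krt8. Quantile normalization, which shifts genes by rank, does move these ratios (Krt18 from -0.74 to -0.93 and Krt19 from 1.62 to 1.44), without changing a call. Over the 10891 genes other than Krt8, 28% were called higher and 8.44% lower in MG53-TG, with a median of 0.20, since Krt8 itself was lower. Krt20 was higher relative to Krt8 by 2.99 on the log2 scale (limma adjusted p = 3.88e-05) and Krt19 by 1.62 (limma adjusted p = 0.0182). Krt18 was lower by this measure (-0.74, limma adjusted p = 0.0166), and so was Krt7 (-1.505, limma adjusted p = 0.0226). All 4 passed the threshold here, but the Krt19 ratio did not when only end events were used (1.42, limma adjusted p = 0.0588), and the Krt7 ratio did not without any one of WT samples 1, 3 and 4 or MG53-TG sample 3 (limma adjusted p from 0.0531 to 0.0585).

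**Figure D4:**
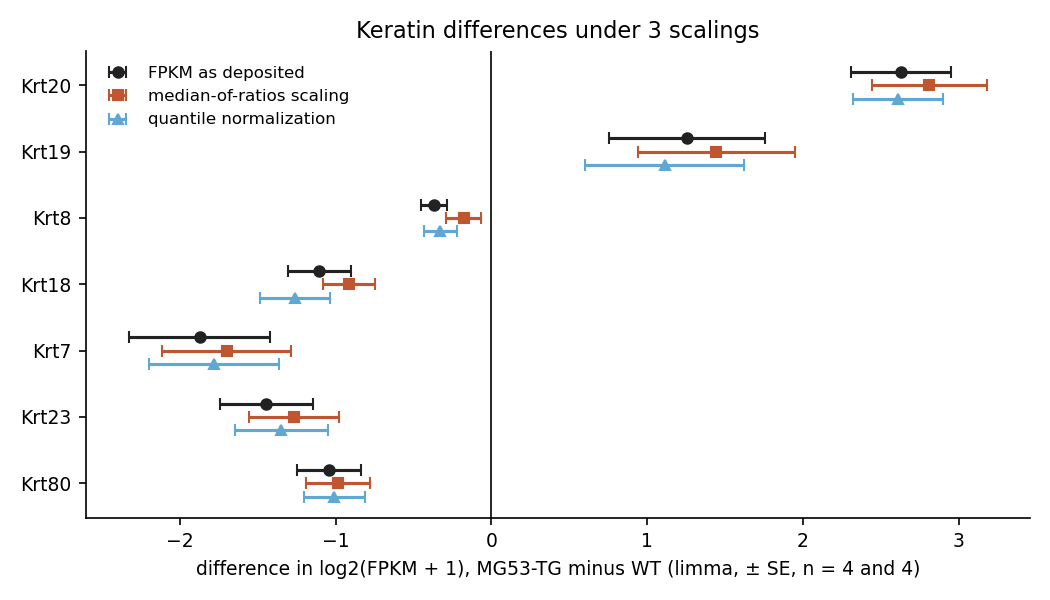
Difference in log2(FPKM + 1) between MG53-TG and WT (horizontal axis, limma estimate with SE, 4 samples each) for the 5 simple keratins and for Krt23 and Krt80, with FPKM as deposited and under 2 other scalings. The 5 simple keratins and Krt23 do not change direction, and Krt8 moves from -0.37 to -0.18 with median-of-ratios scaling. Krt80 reached the filter on low values through WT alone, so its estimate is not read as a test.

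Markers of the cell types of the gut differed between the groups as well, and they were set beside the keratins. All 10 enterocyte markers, such as Fabp1, Apoa4 and Sis, were higher in MG53-TG. Their sum was between 937 and 1122 FPKM in WT and between 11566 and 12682 FPKM in MG53-TG. The 7 stem cell markers, of which 5 were called lower, summed to between 495 and 685 FPKM in WT and to 293, 306, 90.3 and 55.6 FPKM in MG53-TG 1 to 4. The 7 proliferation genes, of which 6 were called lower, summed to between 419 and 462 FPKM in WT and to 319, 325, 166 and 121 FPKM in MG53-TG 1 to 4. The samples with the most Krt20 and the least Krt18, MG53-TG 3 and 4, were thus also those with the lowest stem cell and proliferation sums, whereas Krt19 followed neither. Paneth markers were lower in 6 of 6 tested, goblet markers in 5 of 7, and regenerative epithelium markers (Ly6a, Anxa1, Anxa3, Clu and Il1rn) in 5 of 5, while 3 of 6 enteroendocrine markers were higher, against 28.8% lower and 15.5% higher over all genes. The Paneth marker Lyz1 was not called with median-of-ratios scaling (limma adjusted p = 0.0579) or with the replicate number as a block, and with that block the goblet marker Zg16, at 9.18 ± 2.67 FPKM in WT and 33.7 ± 28.0 FPKM in MG53-TG (SD, n = 4), was called higher. None of the tuft cell markers reached the filter. The part of a change in cell types in the keratin differences was not tested.

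Mesothelium also uses Krt7, Krt8, Krt18 and Krt19. Its markers Wt1 and Lrrn4 were not listed in any sample, and the list, mostly Msln and Upk3b, summed to between 15.9 and 21.0 FPKM in WT and between 5.75 and 12.7 FPKM in MG53-TG. Of its 3 genes tested, only Msln was called, and it was lower (-2.03, limma adjusted p = 0.000873), near the 28.8% lower over all genes. The part of such cells in the keratin differences was not tested.

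The genes most like each keratin were found by Pearson's r of log2(FPKM + 1) over the 8 samples, among the 9137 genes averaging 2 FPKM or more. These values describe the samples, and they share the difference between the groups. Krt20 was closest to Cyp3a13, a cytochrome P450 (r = 0.999), Slc51b, a subunit of the basolateral bile acid transporter (r = 0.999), and Apoa2, an apolipoprotein (r = 0.999). Slc51b and Apoa2 were at no more than 1.17 and 0.849 FPKM in any WT sample. They reached the 2 FPKM filter through MG53-TG alone, so their r is not read as support. Cyp3a13 was at 90.7, 87.5, 205 and 208 FPKM in MG53-TG 1 to 4, the same pattern as Krt20. Krt18 was closest to Nectin2, an adhesion molecule (r = 0.997), Tbl2 (r = 0.996) and Slc1a4, a neutral amino acid transporter (r = 0.994). Krt7 was closest to Hook2, a microtubule linker (r = 0.994), 4921524J17Rik (r = 0.992) and the tubulin Tuba4a (r = 0.991). Krt8 was closest to Snhg6 (r = 0.989), the immediate early gene Fos (r = 0.987) and Cd68 (r = 0.981). Cd68, which was not on the immune list, was at 3.75, 4.80, 9.08 and 6.94 FPKM in WT samples 1 to 4. In MG53-TG 1 to 4 it was at 0.942, 0.469, 1.05 and 1.28 FPKM, so it reached the 2 FPKM filter through WT alone. Krt19 had no equally close gene: its nearest were Tmem127 (r = 0.939), Tent4b (r = 0.920) and Cryz (r = 0.918), and Tmem127 spanned only 11.2 to 13.9 FPKM. Among the members themselves, r was 0.97 between Krt7 and Krt18 and -0.96 between Krt18 and Krt20.

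Keratin filaments are tied to the cell border by desmosomes, where desmogleins and desmocollins span the membrane and plakoglobin, plakophilins and desmoplakin link them to keratin. Of 8 desmosome genes tested, 6 were lower and 0 higher, with a median difference of -0.39 against -0.17 over all genes, of which 28.8% were lower. The plakophilin Pkp4 had the largest change, from 18.8 ± 3.07 to 6.14 ± 2.58 FPKM (SD, n = 4; log2 difference -1.54, limma adjusted p = 0.00182), followed by Pkp2 (-0.48, limma adjusted p = 0.00218). Perp, Dsg2, Dsc2 and Dsp were lower by smaller amounts, from -0.47 to -0.28. The remaining 2 did not pass: plakoglobin (Jup) was at 42.1 ± 7.15 and 39.7 ± 5.37 FPKM, and Pkp3 at 21.9 ± 0.92 and 31.0 ± 15.9 FPKM (WT and MG53-TG, SD, n = 4). With median-of-ratios scaling only 2 of the 8, Pkp2 and Pkp4, were called, so the smaller changes depend on the scaling. Dsp was also not called with the replicate number as a block, nor Dsg2 with quantile normalization (limma adjusted p = 0.0539) or without MG53-TG sample 2.

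At the base of the cell, hemidesmosomes anchor filaments to the basement membrane through the integrin made of Itga6 and Itgb4. Of 5 such genes tested, 3 were lower and 0 higher, under each of the 3 scalings, against 28.8% lower and 15.5% higher over all genes. Itga6 went from 48.1 ± 8.66 to 15.6 ± 2.70 FPKM (SD, n = 4; log2 difference -1.56, limma adjusted p = 0.000152) and Itgb4 from 19.6 ± 3.26 to 11.2 ± 1.33 FPKM (-0.74, limma adjusted p = 0.00316). Lamb3 and the tetraspanin Cd151 had differences of -0.04 and -0.02. The plakins are large linkers between keratin and other structures, and 1 of 5 tested was called, no more than the share over all genes: Macf1, which mainly links actin and microtubules, was lower (-0.47, limma adjusted p = 0.0142), while plectin (Plec) was at 5.08 ± 2.84 and 7.20 ± 2.31 FPKM (SD, n = 4).

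Of 10 tested genes for proteins that bind, fold or cut keratins, 2 were higher and 4 lower, near the 15.5% and 28.8% over all genes. Casp6, the caspase known to cleave Krt18 and the nuclear lamins during cell death, was higher, at 21.9 ± 0.50 FPKM in WT and 42.6 ± 3.78 FPKM in MG53-TG (SD, n = 4; log2 difference 0.92, limma adjusted p = 9.45e-05). Sqstm1 (p62), which gathers with keratins in aggregates, was higher by 0.27 (limma adjusted p = 0.0430), with overlapping groups, and it was not called with the replicate number as a block or without MG53-TG sample 2. Among those lower were the keratin-binding Fbf1 (-0.57), the cross-linking enzyme Tgm2 (-0.44) and the 14-3-3 protein Ywhaz (-0.41), of a family that binds phosphorylated Krt18, though Tgm2 was not called with median-of-ratios scaling (limma adjusted p = 0.0601). Of the 4 other intermediate filament genes tested, only the nuclear lamin Lmnb1 was called, at 61.2 ± 4.18 FPKM in WT and 19.8 ± 9.98 FPKM in MG53-TG (SD, n = 4; log2 difference -1.73, limma adjusted p = 0.00358). Vim, the filament of mesenchymal cells, was low in both groups, at 2.41 ± 0.60 and 1.59 ± 0.64 FPKM.

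Outside the 5 simple keratins, 23 keratins had a value and 6 reached the filter. Krt23, a type I keratin of gut and other glandular epithelia, was the only one of these above 3 FPKM. It was at 29.4, 32.3, 49.3 and 47.0 FPKM in WT samples 1 to 4 and at 8.44, 24.5, 13.1 and 12.1 FPKM in MG53-TG 1 to 4. All MG53-TG samples were lower than all WT samples (log2 difference -1.45, SE 0.30, limma adjusted p = 0.00500), as with Krt7 and Krt18. Krt80, a type II keratin, was at 1.59 ± 0.36 FPKM in WT and 0.286 ± 0.347 FPKM in MG53-TG (SD, n = 4). It reached the filter on low values through WT alone, so no test of it is given. Krt15 was at 0.535 ± 0.374 FPKM in WT and 0.582 ± 0.370 FPKM in MG53-TG.

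A further 18 keratins, all of kinds known from hair follicle, epidermis and other stratified epithelia, were not listed in any WT sample. None of them was listed in MG53-TG sample 1, whereas 18 were listed in sample 2, 8 in sample 3 and 10 in sample 4. Their summed level was 17.6, 5.66 and 7.50 FPKM in samples 2, 3 and 4 of MG53-TG, and none was above 2.43 FPKM. Of these, Krt71, Krt25 and Krt87, keratins of the hair follicle, reached the filter on low values, through MG53-TG samples 2 to 4 alone and with MG53-TG sample 1 set as missing, so no test of them is given.

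Most other listed genes of skin and connective tissue were likewise low and highest in MG53-TG samples 2 to 4, with exceptions: Sbsn was listed in all 8 samples, Tchh also in MG53-TG sample 1 (0.069 FPKM), and Dsg4 in MG53-TG samples 1 and 4 only (0.490 and 0.482 FPKM). Vim, of the mesenchymal list, was listed in all 8 samples and had the higher mean in WT. A list of hair shaft and epidermal genes, chosen after these keratins were seen, summed to at most 1.11 FPKM in WT and to 1.39, 8.63, 5.58 and 5.87 FPKM in MG53-TG 1 to 4. The mesenchymal list summed to at most 3.24 FPKM in WT and to 1.31, 5.58, 4.14 and 5.09 FPKM in MG53-TG 1 to 4, with Lum and Pdgfra not listed in any sample and Col1a1, Col1a2, Col3a1 and Dcn not in WT. The squamous list summed to at most 0.866 FPKM in WT and to 0, 2.98, 1.01 and 1.42 FPKM in MG53-TG 1 to 4. Of its genes, Krt14 was at 1.65, 0.584 and 0.824 FPKM and Krt5 at 1.34, 0.427 and 0.593 FPKM in MG53-TG 2, 3 and 4, and Krt5 was also listed in WT sample 1 at 0.473 FPKM. Krt4 ran the other way, at 0.393, 0.424, 0.565 and 0.321 FPKM in WT samples 1 to 4 and not listed in any MG53-TG sample, and Trp63, Ivl and Krt13 were not listed in any sample. MG53-TG sample 1, which had none of the 18 keratins, had Krt20 at 81.6 and Krt18 at 279 FPKM. The part of skin or connective tissue cells in the keratin differences was not tested.

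**Figure D5:**
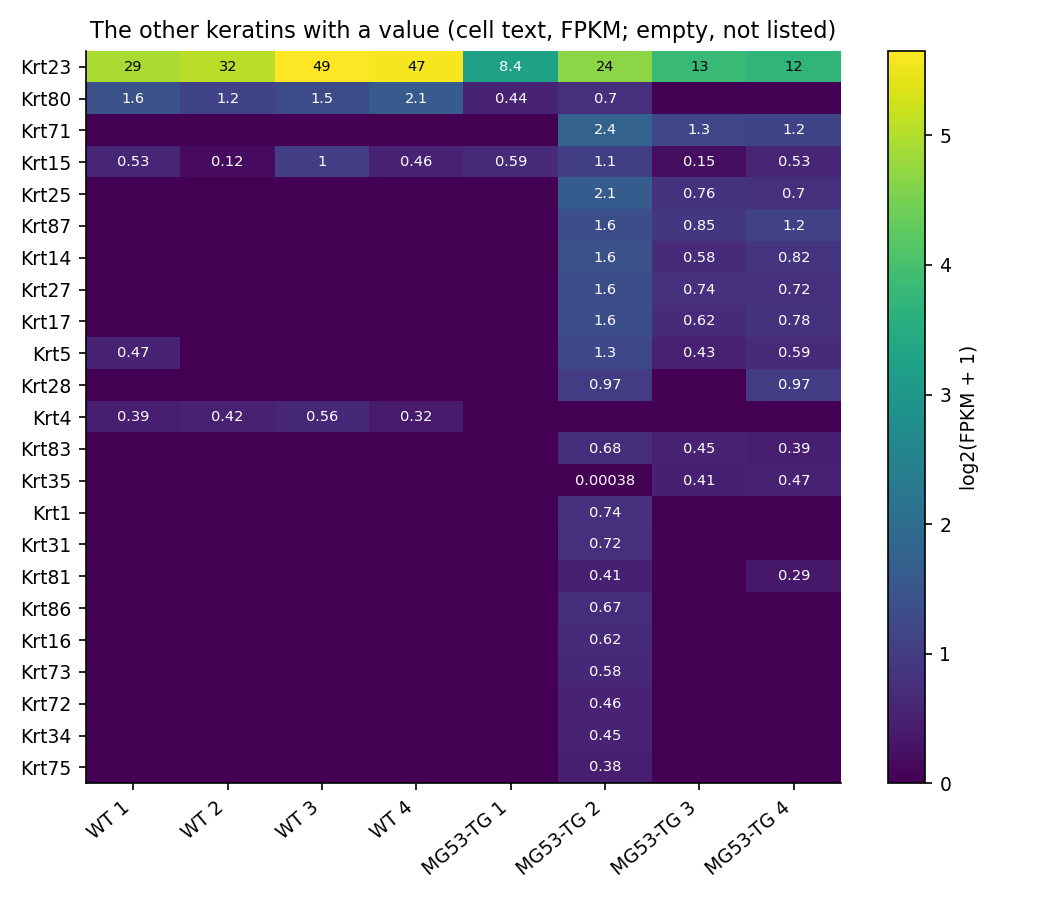
Level of the 23 other keratins with a value (vertical axis) in the 8 samples (horizontal axis), coloured by log2(FPKM + 1), with FPKM written in each cell and empty cells where the gene was not listed. Krt23 is lower in all MG53-TG samples, and 18 keratins appear in MG53-TG samples 2 to 4 alone, none above 2.43 FPKM.

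Near-identical copies can take reads from a gene. Of the members, Krt8 has a processed pseudogene, Krt8-ps, that is 98.6% identical over 941 of 1958 transcript bases, and Krt18 has Gm5200, 90.5% identical over 1267 of 1437 bases. Neither copy had an entry in the tables, so how the authors' counting treated shared reads cannot be read from them. The lincRNA gene Gm36026 overlaps the first exon of Krt8 on the other strand and was below 1 FPKM in each sample. No copy of at least 500 bases at 90% identity was found for Krt7, Krt19 or Krt20.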

How the data were processed

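RNA-seq of 8 organoid samples, 4 WT and 4 MG53-TG, was analysed, with groups from the genotype labels. The authors trimmed reads with Cutadapt 1.9.1 and mapped them with Hisat2 2.0.1; the submitters' notes also name HTSeq 0.6.1, DESeq2 and the build mm10. The deposited values are FPKM per transcript event (a start, an end, a skipped exon or another of 20 types); the tool that made the event tables is not given in the sources used here. The smallest value was 1e-06, so whole reads could not be recovered and the depth is unknown.

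Events were placed on GENCODE genes of GRCm38 by exon boundaries, which placed 95.3% of 123166 events, 6.31% on another gene than the one named. The gene value was the sum of start events, or of end events where their mean was higher; the design had assumed 1 FPKM per gene. A gene not listed in a sample was set as missing if the median of the others in its group was 0.5 FPKM or more, and as 0 if not. limma 3.58.1 (lmFit, eBayes with trend) in R 4.3.3 was run on log2(FPKM + 1), which understates changes of low genes, over genes averaging 0.5 FPKM or more. For single genes an exact permutation test (two-sided, 70 relabellings) was added. On simulated data, 81.5% of 200 changed genes among 10473 were recovered, with 9 unchanged genes called. Every simulated sample was drawn with the spread of the WT samples. The MG53-TG samples spread more widely for Krt19 and Krt20, and many more genes were called, so these rates need not hold here. Copies were sought with blastn 2.17.0, and Python 3.11.15 was used otherwise.

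The members and gene lists were chosen with earlier results of these data known. The genes named are the 5 members, Trim72, other keratins with a mean of at least 0.5 FPKM, genes of the lists (the called ones with the largest change in each), and the 3 genes closest to each member. Alternatives were the pseudocount (0.1), filters, scalings, a replicate block, sample weights, other event sums, no trend, leaving out each sample and, added after seeing the data, gene assignment without the exon check. The values of some genes on the lists are not reported here.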

Additional observations from a re-analysis of the deposited data

How the results depend on the processing

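The direction of the 5 keratin differences and of the 4 ratios to Krt8 held under each alternative run. The Krt8 difference no longer passed with median-of-ratios scaling (-0.18, limma adjusted p = 0.239). Krt19 passed with median-of-ratios scaling (1.44, adjusted p = 0.0477) and with sample weights (1.42, adjusted p = 0.0249), and its difference ranged from 0.90 to 1.65 when samples were left out in turn, passing without MG53-TG sample 2 or 4. Its ratio to Krt8 was 1.42 and did not pass with end events only (adjusted p = 0.0588) or with the highest single event (adjusted p = 0.0513). The Krt7 ratio ranged from -1.97 to -1.16 when samples were left out, and did not pass without WT sample 1, 3 or 4 or MG53-TG sample 3. The count of genes called was 4827 and lay between 3586 (end events only) and 5107 (without MG53-TG sample 2). The share of calls that were higher was 35.0% as deposited, 50.1% after median-of-ratios scaling and 44.1% after quantile normalization. The causes were not tested. With the replicate number as a block (replicate block), 4406 genes were called, 4210 of them also without it, and no simple keratin changed its call (Krt19 adjusted p = 0.0712, Krt20 adjusted p = 0.00102). Deviations of same-numbered samples correlated at -0.05 to 0.09, so the numbers were not read as pairs. Krt8 has no value from start events, so no ratio was computed there. Depth is unknown, and 4 samples a group limit the precision.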
